A study of Homo sapiens with 6 samples.

Results

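The genes followed here encode 8 proteins of plasminogen activation and blood coagulation. They were looked up by gene symbol, and the rows PLAU, PLAUR, PLAT, SERPINE2, F3, TFPI, TFPI2 and THBD were found as 8 of the 25545 genes in the deposited table of TPM (a gene's reads relative to its transcript length, scaled to the same total in every library). The cells were BT-549, a long-established line of triple-negative breast cancer, grown with insulin. Of the 6 RNA-seq libraries, 3 came from cells given a control siRNA (CsiRNA) and 3 from cells given an siRNA against the long noncoding RNA NEAT1 (NEAT1siRNA), each 48 h after transfection. The libraries came from triplicate cultures of 1 cell line, and the labels name 1 siRNA against NEAT1, so its effects on other transcripts and those of NEAT1 loss cannot be told apart. The sample titles carry the prefix tet (BT-549/tet-NEAT1CsiRNA and BT-549/tet-NEAT1siRNA), whereas the treatment labels describe transfection. Values of the 3 libraries of a group are listed in the order of replicates 1, 2 and 3.

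Plasminogen activators are serine proteases that cut the inactive precursor plasminogen to plasmin, a protease that dissolves fibrin and degrades matrix. Urokinase (PLAU) does this at the cell surface, where it is held by its receptor (PLAUR), and serpins such as SERPINE2 trap it in inactive complexes. Coagulation starts when tissue factor (F3) meets factor VIIa. TFPI inhibits tissue factor joined with factor VIIa, while thrombomodulin (THBD) turns thrombin toward the activation of protein C. Urokinase and its receptor are known for their high levels in invasive breast cancers.

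NEAT1, the targeted gene, had 13.4, 7.68 and 10.8 TPM under CsiRNA, compared with 4.36, 2.96 and 2.73 under NEAT1siRNA, so that the groups did not overlap. Its log2 fold change was -1.41 ± 0.14 (SE), with a limma adjusted p of 1.21e-07. The sum of 5 mesenchymal markers (VIM, CDH2, FN1, ZEB1 and SPARC) lay between 1360 and 1680 TPM in all 6 libraries, and CDH2 and FN1 were among the genes that fell. Of 6 luminal and epithelial markers, ERBB2 alone had a mean TPM of at least 1. Summed markers of endothelial cells (8 genes, at most 1.29 TPM), of leukocytes and platelets (7 genes, at most 0.664 TPM) and of hepatocytes (6 genes, at most 0.205 TPM) were near 0 in every library, with CDH5, CD3E and FGA at 0 in all of them, and their genes were too low to be tested. The groups did not overlap for TEK (0.176 to 0.255 TPM under CsiRNA and 0.318 to 0.384 under NEAT1siRNA) or for PTPRC (0.0272 to 0.058 and 0.00369 to 0.0167 TPM), and their part in the results was not tested. Reads recovered by joining the deposited tables summed to between 15790329 and 20339429 per library. In RNA from bulk cultures, fewer cells expressing a gene and less RNA per cell cannot be told apart.

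Expression was compared as log2(TPM + 1) with limma's moderated test (two-sided) over the 10721 genes that averaged 1 TPM or more, and genes with an adjusted p (Benjamini-Hochberg) under 0.05 counted as changed. On this scale the fold change of a gene with low TPM is understated. The background was high. Of all genes tested, 14% were changed, 8.98% lower and 4.99% higher with NEAT1siRNA, and for 30.3% the groups did not overlap. Of the 8 genes followed, 5 could be tested (PLAU, PLAUR, SERPINE2, TFPI and TFPI2), and 2 of these, PLAU and PLAUR, were changed, both lower. The same 2 genes were the ones whose groups did not overlap. The median log2 fold change of the 5 was -0.29, against -0.044 over all genes tested. PLAT, F3 and THBD were below the minimum of 1 TPM and are described by their reads.

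The levels spanned a wide range. As TPM, which is per transcript length, and averaged over the 6 libraries, SERPINE2 had 121 TPM, PLAU 38.5, TFPI2 23.5, PLAUR 21.2 and TFPI 9.78, while PLAT had 0.252, F3 0.0853 and THBD 0.0212. TFPI2 and PLAUR, neighbours in this order, overlapped under CsiRNA but not under NEAT1siRNA, F3 and THBD overlapped in both groups, and the other neighbours overlapped in neither. Messages of urokinase, its receptor and its inhibitor SERPINE2 were detected together, and reads for the tissue-type activator, tissue factor and thrombomodulin were few.

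The sequences upstream of the 2 genes that fell, and of TFPI2 for comparison, are shown as a description. Promoter windows (250 bases before to 50 after a start site) came from RefSeq on GRCh38.p14 and were searched for PLAU, PLAUR, SERPINE2, F3, TFPI and TFPI2. No window was found for THBD, and PLAT was not searched. The printed stretches end before the start site and are written 5′ to 3′ on the gene's strand. Capitals mark matches to the motifs of Sp1 (GGGCGG, or CCGCCC for the other strand), of AP-1 (TGACTCA, or TGAGTCA for the other strand) and, in TFPI2, of the NF-κB consensus by name.
PLAU, plus strand, chr10:73910882-73911103: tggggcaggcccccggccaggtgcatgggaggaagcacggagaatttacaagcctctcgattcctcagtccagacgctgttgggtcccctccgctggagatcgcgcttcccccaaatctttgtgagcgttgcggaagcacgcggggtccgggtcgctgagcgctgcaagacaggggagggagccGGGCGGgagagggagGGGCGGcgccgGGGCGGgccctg
PLAUR, minus strand, chr19:43670338-43670366: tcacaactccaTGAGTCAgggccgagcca
TFPI2, minus strand, chr7:93890754-93891003: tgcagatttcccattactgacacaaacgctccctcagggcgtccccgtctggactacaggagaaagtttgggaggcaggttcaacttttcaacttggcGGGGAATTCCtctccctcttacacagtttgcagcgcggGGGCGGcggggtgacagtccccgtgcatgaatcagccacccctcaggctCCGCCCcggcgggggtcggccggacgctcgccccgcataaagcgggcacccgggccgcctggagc
The PLAU stretch lies within the gene, just upstream of the first exon of an annotated transcript and in no PLAU exon, and on the opposite strand it is exonic in the lncRNA gene C10orf55. It holds 3 matches to the Sp1 motif, which was present in 45.0% of 35116 promoter windows. Windows of SERPINE2, F3 and TFPI2 also held Sp1 matches. The windows of PLAU and PLAUR had none of the 6 motifs in common. The PLAUR stretch lies within the first exon of a longer annotated PLAUR transcript and holds an AP-1 match at -186 from the start site, a motif present in 4.95% of windows. Of the genes searched, PLAUR and F3 had an AP-1 match. The NF-κB consensus was matched in TFPI2 alone of the genes searched and in 11.3% of all windows. The TEAD motif (GGAATG, in 14% of windows) was found in none of their windows, CACGTG (7.26%) in a window of SERPINE2, and TATAAA (11.5%) in F3. The TFPI2 stretch overlaps an exon of the divergent lncRNA gene TFPI2-DT. The window of TFPI and the window at the other PLAU start site held none of the 6 motifs. These matches describe the letters of the windows and do not show binding.

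PLAU encodes urokinase and lies on chromosome 10 of GRCh38 from 73909177 to 73917496. It had 51.9, 47.9 and 45.1 TPM under CsiRNA, compared with 30.8, 28.8 and 26.8 under NEAT1siRNA. Every NEAT1siRNA library was below every CsiRNA library. The mean fell from 48.3 ± 3.41 to 28.8 ± 1.97 TPM (SD, n = 3 each), or 59.6% of the CsiRNA mean, a log2 fold change of -0.73 ± 0.09 (SE) with a limma adjusted p of 5.79e-06. In recovered reads, which are not adjusted for the depth of the libraries, this was 2691, 2518 and 2886 against 1716, 1697 and 1401.

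PLAUR encodes the urokinase receptor, a protein anchored to the membrane by a lipid, and lies on chromosome 19 (minus strand, 43646095 to 43670547). It had 27.8, 25.3 and 23.9 TPM under CsiRNA, compared with 16.9, 18.2 and 15.3 under NEAT1siRNA. The groups were again apart, with the highest NEAT1siRNA value well below the lowest CsiRNA value. The mean fell from 25.6 ± 1.97 to 16.8 ± 1.44 TPM (SD, n = 3 each), or 65.6% of the CsiRNA mean, a log2 fold change of -0.58 ± 0.10 (SE) with a limma adjusted p of 0.000150. By size of fall, PLAU and PLAUR were at positions 52 and 120 among the 10721 genes tested.

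**Figure D1:**
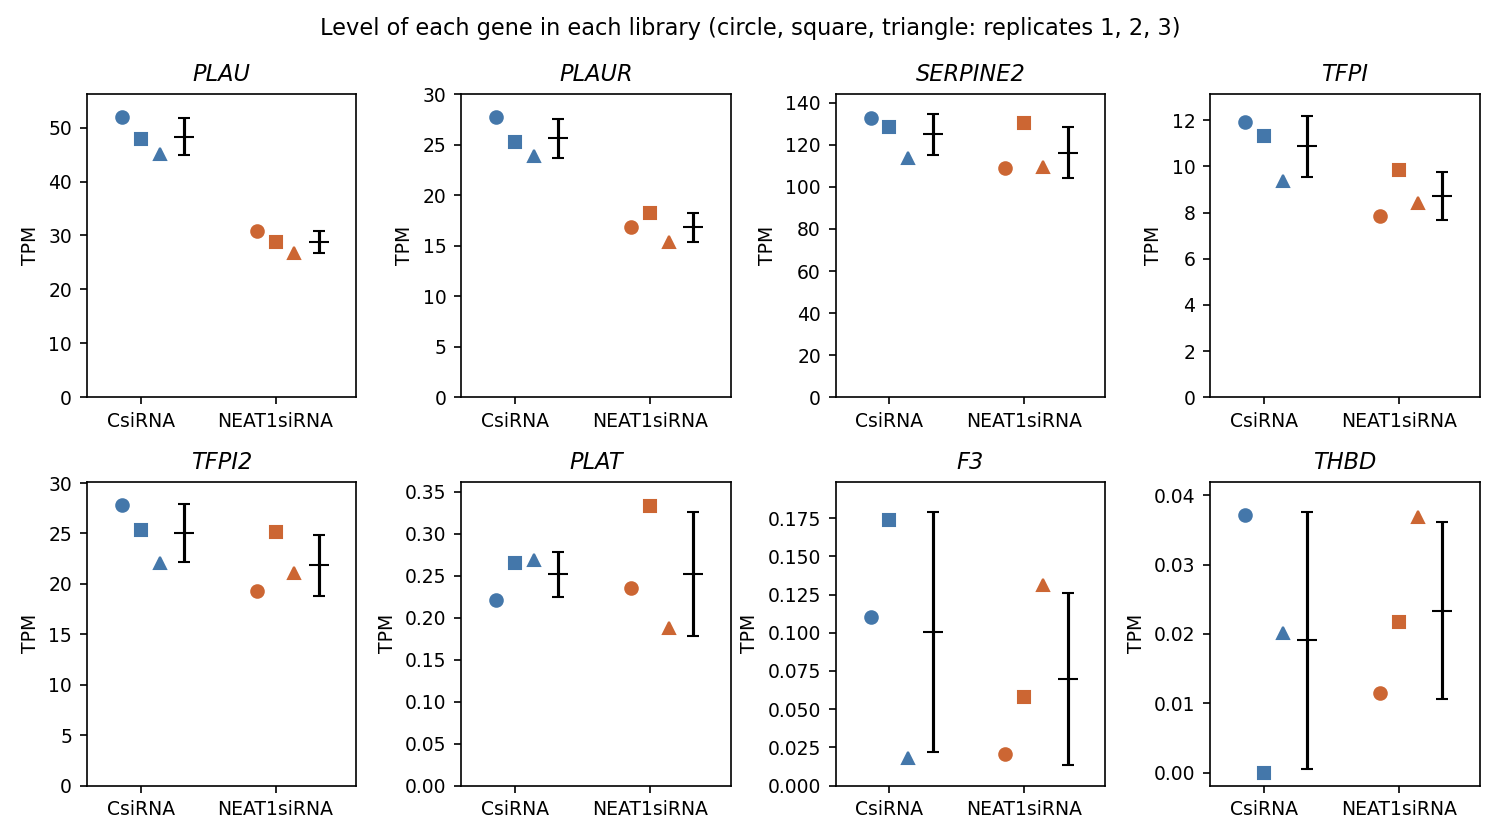
TPM (vertical axes, linear) of the 8 genes in the 3 CsiRNA (blue) and 3 NEAT1siRNA (orange) libraries, with the mean and SD of each group in black. PLAU and PLAUR are the panels in which the groups do not overlap, and the panels of PLAT, F3 and THBD lie below 1 TPM.

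SERPINE2 (protease nexin-1), a serpin that inhibits urokinase, thrombin and plasmin, lies on chromosome 2 (minus strand, 223975045 to 224039318). It had 133, 128 and 114 TPM under CsiRNA, compared with 109, 130 and 110 under NEAT1siRNA. NEAT1siRNA replicate 2 was above 2 of the 3 CsiRNA libraries. The log2 fold change was -0.10 ± 0.09 (SE), with a limma adjusted p of 0.513, and its 95% interval ran from -0.30 to 0.09, so that a fall as large as that of PLAU or PLAUR was outside it.

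TFPI, the Kunitz-type inhibitor of tissue factor with factor VIIa, lies on chromosome 2 (minus strand, 187464230 to 187565760). Its values were 11.9, 11.3 and 9.37 TPM under CsiRNA, compared with 7.86, 9.86 and 8.39 under NEAT1siRNA. The groups overlapped, since NEAT1siRNA replicate 2 was above CsiRNA replicate 3. The log2 fold change was -0.29 (95% interval -0.50 to -0.08, standard error 0.10) and missed the threshold, with an adjusted p of 0.0639 from limma.
The call for TFPI changed with the scaling and with single libraries. With RN7SK, RN7SL1, RN7SL2 and RPPH1 left out before TPM were rescaled, TFPI had 33.4, 32.9 and 29.0 in CsiRNA and 23.8, 28.1 and 26.3 in NEAT1siRNA replicates 1, 2 and 3, with no overlap and an adjusted p of 0.0475 from limma. Without NEAT1siRNA replicate 2 the log2 fold change was -0.37 (limma adjusted p = 0.00294), and without CsiRNA replicate 3 it was -0.38 (limma adjusted p = 0.0169). Over all 17 alternatives it stayed negative, and the adjusted p from limma ran from 0.00115 to 0.279.

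TFPI2, a relative of TFPI with Kunitz domains that inhibits plasmin and other matrix-degrading proteases, lies on chromosome 7 (minus strand, 93885396 to 93890753). It had 27.8, 25.4 and 22.1 TPM under CsiRNA, compared with 19.3, 25.2 and 21.0 under NEAT1siRNA. The groups overlapped, and the log2 fold change of -0.19 (95% interval -0.41 to 0.02) did not pass the threshold (limma adjusted p = 0.236). Without NEAT1siRNA replicate 2 the log2 fold change was -0.30, with an adjusted p of 0.0145 from limma.

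Genes on the opposite strand overlap PLAU (C10orf55), TFPI (CALCRL-AS1) and TFPI2 (GNGT1). GNGT1 was listed at 0 TPM in every library, and the symbols C10orf55 and CALCRL-AS1 were not among the deposited TPM values. The library kit keeps strand, but whether reads were counted by strand is not given in the sources used here, so antisense reads may be included in the values of these genes.

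PLAT, the tissue-type plasminogen activator, gave 14, 17 and 21 recovered reads under CsiRNA and 16, 24 and 12 under NEAT1siRNA. The sums were 52 and 52 reads, and after division by the libraries' size factors the ratio of NEAT1siRNA to CsiRNA was 1.04, with an exact 95% interval of 0.691 to 1.55. For F3, which encodes tissue factor, the reads were 5, 8 and 1 against 1, 3 and 6, a ratio of 0.739 (exact 95% interval 0.294 to 1.79). THBD, the gene of thrombomodulin, had 3, 0 and 2 reads against 1, 2 and 3, a ratio of 1.24 (exact 95% interval 0.316 to 5.15). The groups overlapped for all 3 genes, and a difference was not detectable at this depth. These intervals cover counting error alone.

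Levels of 2 genes within a library were also set against each other, and 4 such log2 ratios of TPM + 1 were compared with an exact permutation test (two-sided), which cannot go below p = 0.1 with 3 libraries against 3. The TPM of PLAU relative to its inhibitor SERPINE2 was 0.391, 0.374 and 0.396 under CsiRNA and 0.282, 0.221 and 0.244 under NEAT1siRNA. All NEAT1siRNA ratios were lower, with a difference of -0.62 in the log2 ratio of TPM + 1 (standard error 0.104), an exact p of 0.1 and an adjusted p of 0.133 over the 4 ratios.
PLAU relative to PLAUR, the protease to its receptor, was 1.87, 1.90 and 1.89 with CsiRNA and 1.82, 1.58 and 1.75 with NEAT1siRNA. This ratio was nearly constant among the CsiRNA libraries, and the difference was -0.15 on the log2 scale (standard error 0.057, exact p = 0.1, adjusted p = 0.133). TFPI2 relative to TFPI was 2.33, 2.24 and 2.36 with CsiRNA and 2.45, 2.55 and 2.51 with NEAT1siRNA, a difference of 0.09 (standard error 0.029, exact p = 0.1, adjusted p = 0.133). The groups did not overlap for these 3 ratios, each of which reached the smallest p that the design allows. Without NEAT1siRNA replicate 2 the difference between groups for PLAU to PLAUR was -0.09. The fourth ratio, F3 to TFPI, is not read here, since F3 gave at most 8 reads in a library and the added 1 outweighs its TPM. Its plain TPM ratios were 0.00925, 0.0154 and 0.0019 with CsiRNA and 0.0026, 0.00589 and 0.0156 with NEAT1siRNA, and the groups overlapped.

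**Figure D2:**
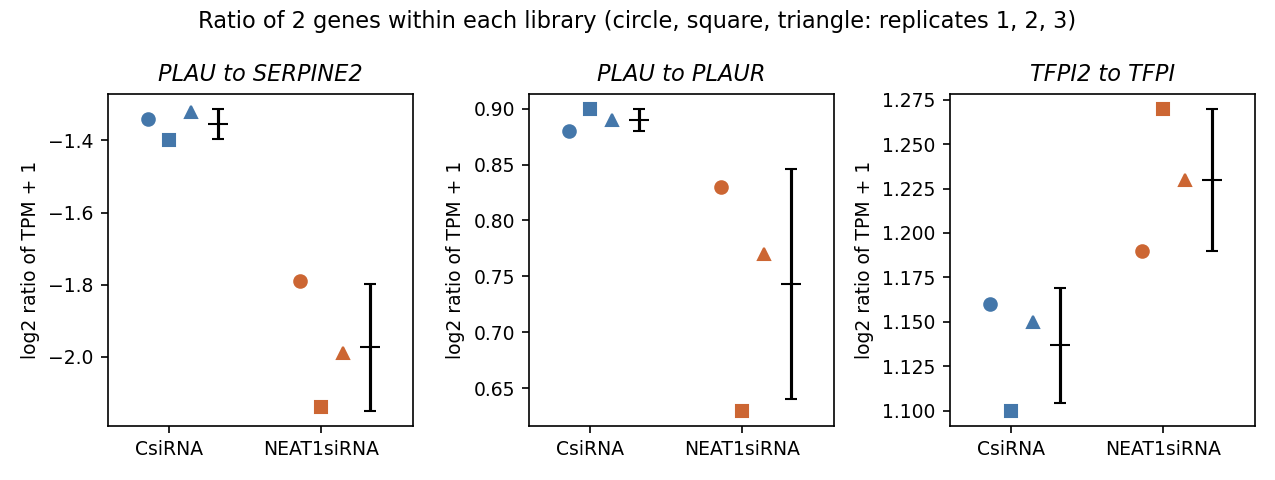
Log2 ratio of TPM + 1 of 2 genes (vertical axes, which do not start at 0) in each CsiRNA (blue) and NEAT1siRNA (orange) library, with the mean and SD of each group in black. The PLAU to SERPINE2 panel shows the largest gap between groups, from a mean of -1.35 to a mean of -1.98.

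The 5 tested genes shared a pattern among replicates, which was not particular to them. In CsiRNA replicate 1 each of the 5 had its highest value of the group, and in CsiRNA replicate 3 each had its lowest. VIM, CDH2 and THBS1 had the same order, whereas MMP14 and SPARC did not. The share of all genes with this order was not counted. The 4 short noncoding RNAs RN7SK, RN7SL1, RN7SL2 and RPPH1 took 64.4% of all TPM in CsiRNA replicate 1 and 67.7% in CsiRNA replicate 3, against 2.48% and 3.01% of recovered reads. After TPM were rescaled without them, the coefficient of variation among CsiRNA libraries went from 7.05% to 2.57% for PLAU, from 7.66% to 3.30% for PLAUR and from 7.84% to 3.15% for SERPINE2. Among NEAT1siRNA libraries it was nearly unchanged for PLAU (6.84% to 6.77%). It went from 8.55% to 4.02% for PLAUR and from 10.3% to 6.05% for SERPINE2. On this scale CsiRNA replicate 1 was still the highest of its group for 4 of the 5 genes, and replicate 3 the lowest for 3. The rescaled means of PLAU were 142 ± 3.64 and 86.3 ± 5.84 (SD, n = 3 each), which do not overlap on this scale either.
NEAT1siRNA replicate 2 had the highest value of its group for 4 of the 5 genes, PLAU being the other. It was also the highest for VIM, CDH2 and THBS1, but not for MMP14 or FN1. In NEAT1siRNA replicate 2, expression relative to the group mean moved with the GC content of transcripts, with a Spearman rho of -0.69 across 10423 genes, which are not independent replicates. The rho was 0.63 in NEAT1siRNA replicate 1, 0.46 in CsiRNA replicate 3 and between -0.32 and 0.16 in the other libraries. The mean GC content of annotated transcripts was 39.5% for TFPI, 48.0% for TFPI2, 49.7% for SERPINE2, 55.0% for PLAU and 55.8% for PLAUR. With a trend on GC content and length removed, the log2 fold change was -0.33 for TFPI (limma adjusted p = 0.00317) and -0.08 for SERPINE2 (limma adjusted p = 0.554). TFPI2 still missed the threshold (-0.18, limma adjusted p = 0.139). PLAU (-0.71, limma adjusted p = 2.99e-11) and PLAUR (-0.57, limma adjusted p = 1.61e-07) passed.

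**Figure D3:**
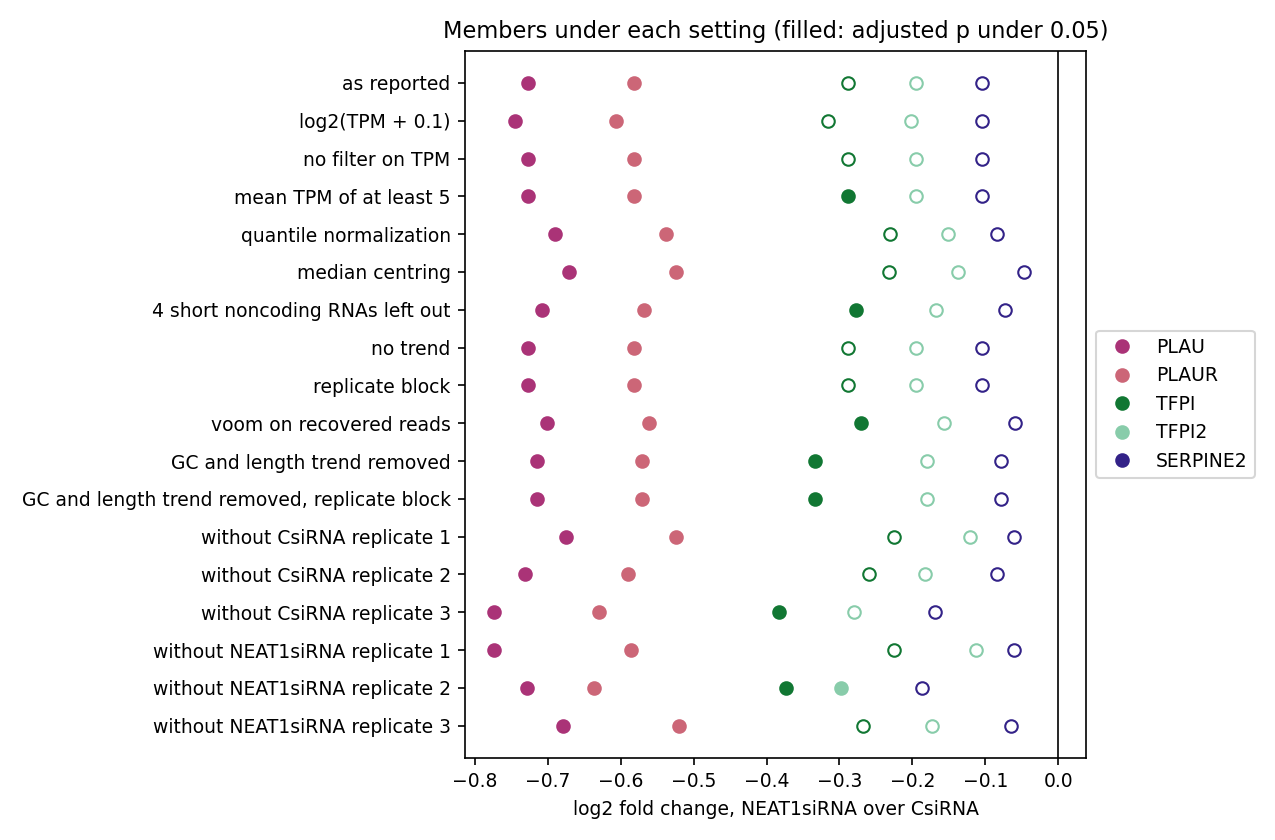
Log2 fold change of the 5 tested genes (horizontal axis) as reported and under 17 other settings (rows), filled where the adjusted p from limma was under 0.05. PLAU and PLAUR are filled in every row, TFPI in 7 of the 17, TFPI2 in 1 and SERPINE2 in none.

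Other genes of plasminogen activation were taken from a list of 25, of which 12 were tested and 7 were at 0 TPM in every library. Past the threshold, 3 were lower and 1 higher, with a list median of -0.02, where 14% of all genes tested were changed. With quantile normalization 3 were lower and 3 higher, ANXA2 (0.15, limma adjusted p = 0.0156) and MMP2 (0.29, limma adjusted p = 0.0304) being the others that were higher. LRP1 had a log2 fold change of -0.34 on deposited TPM and missed the threshold (limma adjusted p = 0.0536). With the trend on GC content and length removed, LRP1 passed as lower (-0.34, limma adjusted p = 0.00583), and with voom likewise (-0.36, limma adjusted p = 0.0378). MMP14, a membrane-bound metalloproteinase, went from 112 ± 4.8 to 69.2 ± 4.68 TPM (SD, n = 3 each, log2 fold change -0.69, limma adjusted p = 6.67e-06). IGF2R, a receptor that also binds plasminogen, and SERPINB8, an intracellular serpin, had log2 fold changes of -0.45 and -0.36 (adjusted p = 0.00404 and 0.0161 from limma). S100A10, which docks plasminogen at the cell surface together with ANXA2, rose from 98.8 ± 5.93 to 128 ± 3.67 TPM (SD, n = 3 each, log2 fold change 0.38, limma adjusted p = 0.00416). ANXA2 itself had 374 ± 23.4 and 404 ± 17.8 TPM and did not pass on deposited TPM (limma adjusted p = 0.414), and PLG, the gene of plasminogen, was at 0. With no filter on TPM, or without CsiRNA replicate 1, SERPINB8 and IGF2R were no longer past the threshold, and the count was 2. SERPINB8 also missed the threshold without NEAT1siRNA replicate 1 and without NEAT1siRNA replicate 3.
Of 31 coagulation genes, 10 were tested and 1 was changed, a share near the 14% of all genes. THBS1, a matrix and platelet protein, fell from 365 ± 33.8 to 241 ± 12 TPM (SD, n = 3 each, log2 fold change -0.59, limma adjusted p = 4.03e-05). The median of the list was -0.07. The clotting factor genes F7, F9 and F10 were at 0 TPM in every library and F2 gave 1 read in all, whereas F2R, the thrombin receptor, had 2.02 ± 0.201 and 1.69 ± 0.219 TPM (limma adjusted p = 0.291). Of 15 further serpin and Kunitz inhibitor genes, 3 were tested and 0 were changed by limma, 0 at an unadjusted p under 0.05 and 0 with voom, with a median of 0.08.

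**Figure D4:**
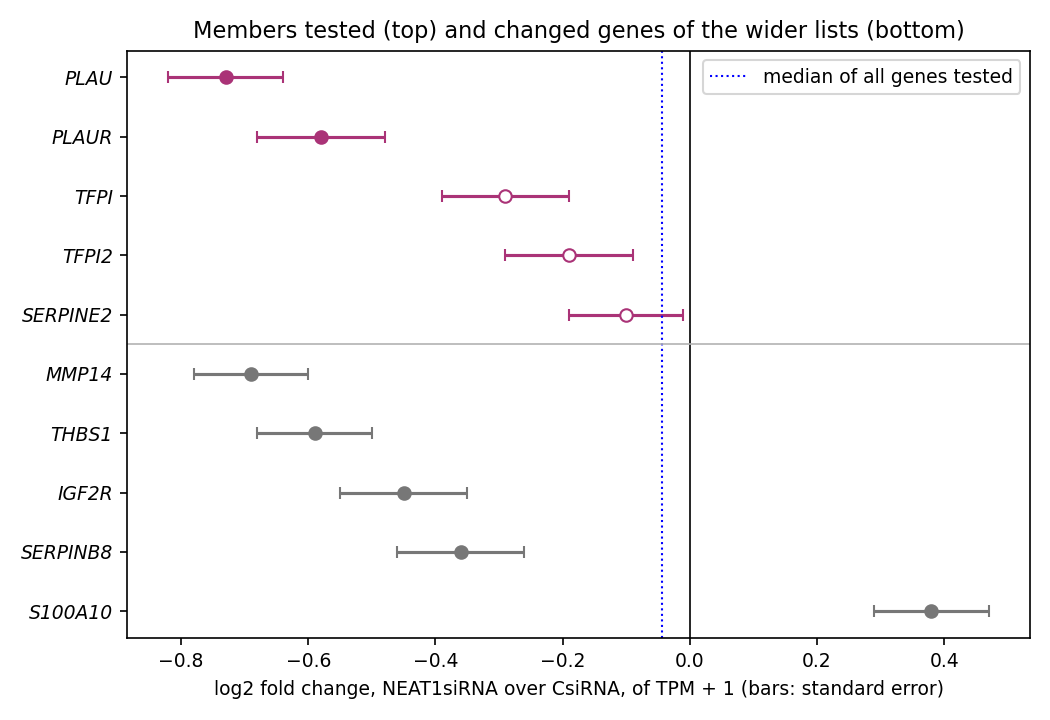
Log2 fold change of TPM + 1 (horizontal axis) with its standard error for the 5 tested genes (top, purple) and for the genes of the plasminogen and coagulation lists past the threshold (bottom, grey), filled where the adjusted p was under 0.05. The dotted line is the median of all genes tested (-0.044), and S100A10 is the gene to the right of 0.

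Among 5062 other genes averaging 10 TPM or more, those whose log2 values followed PLAU most closely over the 6 libraries were SLC43A3 (Pearson r = 0.9985) and EPHA2 (0.9983), and those closest to PLAUR were FJX1 (0.9987) and MSANTD3 (0.9977). These are descriptions over 6 libraries that share the group difference. EPHA2, a receptor tyrosine kinase, had a log2 fold change of -0.70 (limma adjusted p = 8.11e-06).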

How the data were processed

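RNA-seq of BT-549 cells (3 CsiRNA and 3 NEAT1siRNA libraries) was analysed. Per the labels and methods, the authors aligned stranded mRNA libraries with STAR to GRCh38 and used DESeq2. The authors deposited TPM per gene and library, and a table of their own comparison, from which the authors' mean normalized count (a signal) was the sole column used. Its fold changes, standard errors, test statistics and p-values were not used. How TPM were made is not given in the sources used here.

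Groups, taken from the sample titles, were compared on log2(TPM + 1) with lmFit and eBayes (trend) of limma 3.58.1 in R 4.3.3, for the 10721 genes at or above a mean of 1 TPM, with Benjamini-Hochberg adjustment over all genes tested. The procedure was run on simulated counts. These varied independently between genes and held no trend with GC content, unlike the libraries here. A log-scale test was used because the deposited values are TPM. Whole reads were recovered by scaling each gene's TPM to its mean normalized count. Within a tolerance of 0.05, whole numbers made up 99.8% of values where that mean was under 5 and 16.9% where it was at least 500, so higher read counts are approximate. Recovered reads are used for depth, for intervals and for a fit with voom. Coordinates, GC content and transcript length came from GENCODE 44 (GRCh38), and promoters from RefSeq. Python 3.11.15, scipy 1.17.1 and matplotlib 3.10.9 were also used.

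The genes followed, the lists and the tests were chosen with earlier results of these data known. Genes named are the 8 members, NEAT1, the genes of the lists past the threshold (at most 10 per list by size of change) and the 2 genes most correlated with each changed member. Other list genes and markers were named after their values were seen. The results of 1 gene of the plasminogen list and 1 marker are not reported here, and the counts leave them out. The labels name no batch.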

Additional observations from a re-analysis of the deposited data

How the results depend on the processing

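PLAU and PLAUR kept their direction and their call in all 17 alternatives, with log2 fold changes from -0.77 to -0.67 and from -0.64 to -0.52, and SERPINE2 passed the threshold in none (-0.19 to -0.05). TFPI passed with a mean TPM of at least 5 (-0.29), with the 4 short noncoding RNAs left out (-0.28), with voom on recovered reads (-0.27), and with the trend on GC content and length removed, alone or with the replicate block (-0.33 in both). With each library left out in turn, its log2 fold change ran from -0.38 to -0.22, and that of TFPI2 from -0.30 to -0.11.

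The number of the 8 genes changed ran from 2 to 4 with each library left out, and that of the plasminogen list, where 4 were changed, from 2 (without CsiRNA replicate 1) to 5. The plasminogen list had 2 changed genes with no filter on TPM. The plasminogen list had 6 with quantile normalization, with voom and with the GC and length trend removed, alone or with the replicate block. LRP1, lower, was among the 6 in each of these settings except quantile normalization. The coagulation list had 2 with quantile normalization, with median centring, with the 4 short noncoding RNAs left out and with voom, MCFD2 being the second, and the further serpin list had 1 (SERPINB1) with median centring. Over all genes, where 1498 were changed, the count was 505 with no filter, 719 at an adjusted p under 0.01, 2482 with voom, 2532 with the GC and length trend removed and the replicate block, and from 759 (without CsiRNA replicate 1) to 2083 with each library left out. It was 838 without NEAT1siRNA replicate 3. Of the changed genes 64.3% were lower, against 50.6% with quantile normalization, 45.2% with median centring, 54.3% without the 4 short noncoding RNAs and 53.4% with voom. The cause of these differences was not tested.

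Correlations of the deviations of same-numbered libraries (-0.03, 0.25 and -0.11) lay within those of differently numbered ones (-0.40 to 0.40). The numbers were not taken as pairs in the main comparison, though so few correlations cannot exclude pairing. With the replicate block alone, 1640 genes were changed, PLAU and PLAUR stayed past the threshold, and TFPI had a limma adjusted p of 0.0557. The log2 ratios of PLAU to SERPINE2, PLAU to PLAUR and TFPI2 to TFPI kept their direction in the 8 alternatives run for each. For PLAT, F3 and THBD, with 52, 14 and 5 reads summed over the CsiRNA libraries, depth limits what can be seen. With no filter on TPM, their adjusted p from limma was 0.997, 0.770 and 0.889.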
